A study of Sus scrofa with 18 samples.

Results

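The circular (CM) and longitudinal (LM) muscle layers of the uterus were compared in gilts of cycle day 15, which were not pregnant. The layer differences come from 6 of the 18 RNA-seq libraries of the study, the CM and LM libraries of 3 cyclic gilts. The CM and LM libraries of the same number were treated as 1 gilt, after the study's paired design. The remaining libraries came from both layers of gilts on days 12 and 15 of pregnancy, 3 gilts per day. All gilts were Yorkshire pigs, the cyclic gilts were sampled without mating, and mesometrial uterine wall was used, from which the endometrium had been cut away by scalpel before the layers were separated. Each library is 1 layer of 1 gilt, so that with n = 3 gilts the values describe these animals, and the hormone levels and exact luteal state of the gilts were not given in the sources used here. Genes with at least 1 TPM, a relative transcript abundance, in 3 or more of the 6 libraries were tested, which kept 14140 of 24358 genes. Differences are CM minus LM on the log2(TPM + 1) scale ± SE, which understates the change of genes at low levels. Adjusted p values are those of limma with Benjamini-Hochberg adjustment. The SE and p values come from a fit of all 18 libraries, or 16 without pair 3. They therefore share an estimate of the spread with the pregnant gilts and do not rest on the cyclic gilts alone. Where a gene is followed by a pair of differences or of adjusted p values, the former comes from all 3 pairs and the latter from gilts 1 and 2, without pair 3.

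The myometrium has an inner circular and an outer longitudinal layer, whose smooth muscle cells contract when calcium and calmodulin activate myosin light chain kinase. Oxytocin, prostaglandins, acetylcholine, ATP and noradrenaline act on receptors of these cells and shift the calcium level or its effect. On day 15 of the cycle a pig uterus without conceptuses approaches luteolysis, the regression of the corpora lutea that ends the progesterone phase. The CM layer lies against the endometrium, whose glands can reach toward the muscle, whereas the LM layer lies beneath the outer serosa.

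The labels were checked against marker genes. The smooth muscle markers MYH11, the smooth muscle myosin heavy chain, ACTG2, CNN1 and DES were present in all 6 libraries, ACTG2 at 3050.4, 4539 and 2415 TPM in CM and 5624, 6098 and 2160 TPM in LM. MYH11 was at 2365, 3448 and 1777 TPM in CM and 4207, 4849 and 193 TPM in LM. The LM library of gilt 3 thus held smooth muscle RNA but far less MYH11 than the other 5 libraries. Its values correlated with those of the other LM libraries at r = 0.822 and 0.824 across genes, compared with 0.973 between the LM libraries of gilts 1 and 2 and 0.960 to 0.968 among the CM libraries. Cytosolic ribosomal protein genes took 14.9% of its TPM and 3.20% to 5.55% in the other 17 libraries, and its 100 most abundant genes took 46.8% of TPM, compared with 27.4% to 32.9% in the other cyclic libraries. Therefore, results are given with all 3 pairs and without pair 3.

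With 3 pairs, 1814 genes were higher in CM (12.8% of the genes tested) and 140 were higher in LM (0.99%), at an adjusted p below 0.05 and an absolute log2 difference above 1. Without pair 3, 1190 genes were higher in CM (8.42%) and 221 in LM (1.56%). A total of 1113 CM calls (7.87%) and 88 LM calls (0.622%) were made in both analyses, and 0 genes were called in opposite directions. All libraries of the analysis without pair 3 are also part of the 3-pair analysis. Agreement between the analyses is therefore largely built in and shows only how far a call rests on pair 3. Thus 61.4% of the 3-pair calls in CM and 62.9% of those in LM were also called without pair 3, whereas 93.5% and 39.8% of the calls made without pair 3 were also called with 3 pairs. The median of all genes tested lay toward CM, at 0.34 with 3 pairs and 0.11 without pair 3, and it was 0.14, 0.09 and 0.85 in gilts 1, 2 and 3. Median-ratio scaling moved this median to -0.03 with 3 pairs and changed the split to 1190 calls in CM against 398 in LM, and quantile normalization gave 1070 and 597. The direction of single calls below held in both analyses unless stated, whereas the balance of the counts depended on the scaling. With 3 pairs, a fit of the cyclic libraries alone, with 2 residual degrees of freedom, called 827 genes in CM and 32 in LM. The 3-pair calls of DKK2, FKBP4, ITPR3 and HOXA3 were among those that ended in that fit.

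Receptors for contractile agonists were among the genes higher in the LM layer. ADRA2A, the alpha-2A adrenergic receptor that couples to an inhibitory G protein (chromosome 14, 121469572 to 121470924 in Sscrofa11.1, ENSSSCG00000010629), was at 342, 401 and 38.5 TPM in CM and 2263, 3460.2 and 94.2 TPM in LM. The LM value exceeded the CM value in each gilt, but both layers of gilt 3 were lower than either layer of gilts 1 and 2. ADRA2A differed by -2.37 ± 0.38 and -2.91 ± 0.34 (adjusted p = 0.0030 and 0.0030), and without the replicate block the 3-pair call ended (adjusted p = 0.15). P2RX1, an ATP-gated cation channel of smooth muscle (chromosome 12, 49956329 to 49974789), was at 16.8, 10.6 and 5.18 TPM in CM and 127, 69.5 and 17.4 TPM in LM. All 3 LM values lay above all 3 CM values, at a far lower level in gilt 3. P2RX1 differed by -2.34 ± 0.57 and -2.73 ± 0.69 (adjusted p = 0.019 and 0.029), and the call ended without pair 1, at -2.09 (adjusted p = 0.082), and without pair 2, at -2.21 (adjusted p = 0.061). The oxytocin receptor OXTR (chromosome 13, 65134055 to 65155543), which couples oxytocin to phospholipase C, was at 4.22, 2.82 and 4.32 TPM in CM and 16.3, 18.3 and 11.5 TPM in LM. The layers did not overlap, and the LM values of the 3 gilts were within 2-fold of each other. OXTR differed by -1.76 ± 0.28 and -2.03 ± 0.30 (adjusted p = 0.0028 and 0.0053).

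**Figure D1:**
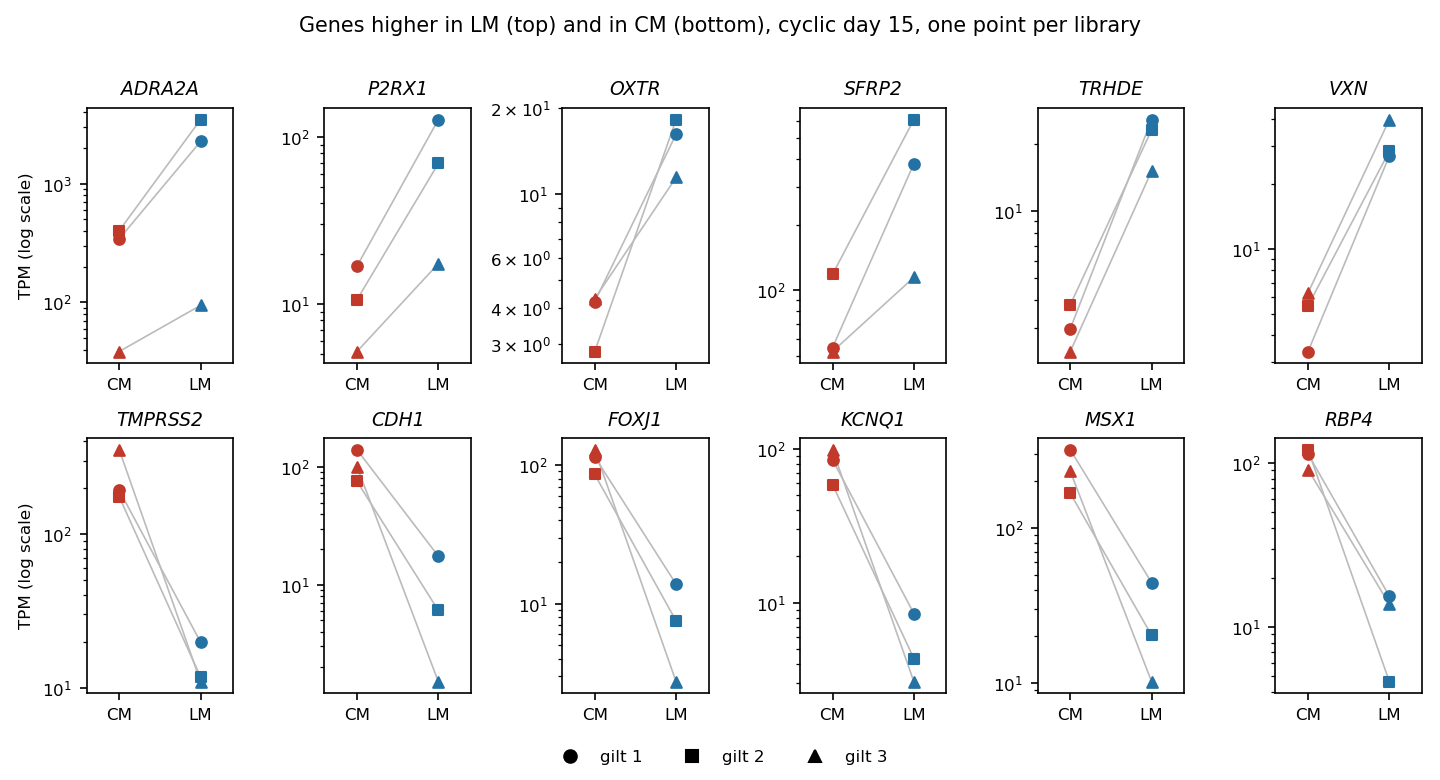
TPM on a log scale in the CM (red) and LM (blue) libraries of the 3 cyclic gilts for 6 genes with more TPM in LM (top) and 6 with more in CM (bottom), with a line joining the layers of a gilt. Every line of the top row rises toward LM and every line of the bottom row falls, while gilt 3 (triangles) is at a low level for ADRA2A, P2RX1 and SFRP2 in LM.

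In the list of 26 tested receptors for contractants and relaxants, OXTR and P2RX1 were higher in LM and TACR1 in CM, in both analyses. Among all genes, 0.622% were higher in LM and 7.87% in CM in both analyses. The list median was -0.15 with 3 pairs and -0.34 without pair 3. TACR1, the substance P receptor, was at 11.9, 4.32 and 13.5 TPM in CM and 2.37, 0.275 and 0.300 TPM in LM. The lowest CM value was above the highest LM value, and TACR1 differed by 2.49 ± 0.33 and 2.0 ± 0.31 (adjusted p = 0.0014 and 0.0059). Other members lay toward LM without passing the fold threshold, such as the prostaglandin E receptor PTGER3 (-0.79 ± 0.23 and -0.91 ± 0.25, adjusted p = 0.042 and 0.042) and the muscarinic receptor CHRM3 (-0.76 ± 0.29 and -1.04 ± 0.31, adjusted p = 0.097 and 0.050). PTGFR, the receptor of prostaglandin F2 alpha, the luteolytic signal of the uterus, was at 36.1, 38.0 and 35.7 TPM in CM and 62.8, 53.1 and 53.3 TPM in LM and did not pass (-0.61 ± 0.21 and -0.63 ± 0.23, adjusted p = 0.077 and 0.10). A pair of peptide hormone receptors named after their values were seen was higher in LM in both analyses: the corticotropin-releasing hormone receptor CRHR2 (-1.41 and -1.61) and the somatostatin receptor SSTR2 (-1.43 and -1.61). The CRHR2 call ended without pair 1, at -1.17 (adjusted p = 0.093).

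The 6 tested adrenergic receptors did not share a direction. ADRA2C, a second alpha-2 receptor, was at 68.0, 105 and 77.4 TPM in CM and 38.9, 51.0 and 14.7 TPM in LM. Each CM value exceeded every LM value, and ADRA2C was called with 3 pairs but not without pair 3 (1.38 ± 0.34 and 0.91 ± 0.30, adjusted p = 0.020 and 0.073). ADRB1, the beta-1 receptor, was at 8.43, 6.78 and 7.90 TPM in CM and 1.45, 0.932 and 0.326 TPM in LM, with the CM values several fold above the LM values, and it was likewise called with 3 pairs but not without pair 3 (2.23 ± 0.49 and 1.98 ± 0.61, adjusted p = 0.013 and 0.059). ADRA1B, ADRA1D and ADRA2B, at 0.347 to 12.2 TPM, were called in neither analysis. SLC6A2, the noradrenaline transporter, which was named after its values were seen, was at 27.9, 16.9 and 16.6 TPM in CM and 2.77, 1.75 and 0 TPM in LM, without overlap between the layers. It differed by 3.26 ± 0.33 and 2.82 ± 0.31 (adjusted p = 0.00072 and 0.0026).

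Genes of calcium and phosphoinositide signaling were split between the layers. Of 31 tested members, 2 were higher in CM and 2 in LM with 3 pairs, and 1 and 4 without pair 3, with a list median of 0.16 with 3 pairs and -0.19 without pair 3. Among all genes tested, the shares in CM and LM were 12.8% and 0.99% with 3 pairs and 8.42% and 1.56% without pair 3. PLCB4, a phospholipase C isoform, was at 13.4, 27.7 and 13.6 TPM in CM and 35.7, 75.6 and 20.1 TPM in LM. The LM value exceeded the CM value in each gilt, although the LM value of gilt 3 was below the CM value of gilt 2. PLCB4 differed by -1.10 ± 0.23 and -1.38 ± 0.19 (adjusted p = 0.0094 and 0.0044), and the call ended without pair 1, at -0.98 (adjusted p = 0.056), and without pair 2, at -0.94 (adjusted p = 0.048). CAMK2D, a calcium/calmodulin-dependent kinase, was also higher in LM in both analyses, -1.01 and -1.22, and was not called without pair 1, -0.86 (adjusted p = 0.14), or pair 2, -0.95 (adjusted p = 0.11). PRKG1, the cyclic GMP-dependent kinase that mediates relaxation by nitric oxide, and the calmodulin kinase kinase CAMKK1 were called only without pair 3. PRKG1 was at 28.1, 37.5 and 22.5 TPM in CM and 75.4, 91.6 and 26.3 TPM in LM, a difference of -0.96 ± 0.27 and -1.33 ± 0.23 (adjusted p = 0.036 and 0.0082). CAMKK1 was at 30.7, 33.1 and 16.3 TPM in CM and 79.8, 71.5 and 7.40 TPM in LM, so that gilts 1 and 2 were higher in LM and gilt 3 was higher in CM, and the difference was -0.46 ± 0.40 and -1.22 ± 0.22 (adjusted p = 0.43 and 0.0094). ITPR3, an inositol trisphosphate receptor, was higher in CM, at 22.5, 13.5 and 16.6 TPM in CM and 7.42, 3.59 and 0.598 TPM in LM, and differed by 2.20 ± 0.37 and 1.57 ± 0.28 (adjusted p = 0.0037 and 0.0088). In pregnant LM, ITPR3 was at 23.6 TPM in library 2 of day 15 and at 1.66 to 4.14 TPM otherwise. In the same library the epithelial gene EPCAM, described below, was at 25.4 TPM, compared with 0.409 to 1.29 TPM in other pregnant LM. The part of epithelial RNA in the ITPR3 difference was not tested.

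Ion channel genes were called in both directions as well. Among 36 tested ion channel and gap junction genes, 4 were higher in CM and 1 in LM with 3 pairs. Without pair 3, 2 were higher in CM and 4 in LM. For all genes tested, the shares were 12.8% and 0.99% with 3 pairs and 8.42% and 1.56% without pair 3. The split of the list with 3 pairs turned to 3 in CM and 7 in LM after quantile normalization. KCNQ1, a voltage-gated potassium channel that is also abundant in secretory epithelia (chromosome 2, 1675323 to 1989110), was at 85.0, 58.7 and 98.6 TPM in CM and 8.51, 4.34 and 3.07 TPM in LM, a difference of 3.76 ± 0.36 and 3.33 ± 0.38 (adjusted p = 0.00066 and 0.0027). KCNQ5, of the same family, had the opposite direction, at 3.74, 2.35 and 1.93 TPM in CM and 15.9, 14.6 and 3.44 TPM in LM, with the LM value of gilt 3 below the highest CM value. KCNQ5 differed by -1.55 ± 0.33 and -2.03 ± 0.30 (adjusted p = 0.011 and 0.0050), and was not called without pair 1, -1.41 (adjusted p = 0.058), or pair 2, -1.22 (adjusted p = 0.055). RYR3, a calcium release channel, CACNA1H, a T-type calcium channel, and PIEZO1, a mechanosensitive channel, were called higher in LM only without pair 3 (RYR3 -1.51, CACNA1H -1.04 and PIEZO1 -1.12, compared with -1.03, -0.15 and -0.26 with 3 pairs). CACNA1H was at 170.4, 221 and 101 TPM in CM and 384, 418 and 31.7 TPM in LM, with gilts 1 and 2 higher in LM and gilt 3 higher in CM. The gap junction gene GJA1, at 371, 355 and 413 TPM in CM and 530.3, 380.4 and 696 TPM in LM, was not called (-0.45 ± 0.22 and -0.31 ± 0.22, adjusted p = 0.17 and 0.37).

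Genes of the contractile apparatus lay toward LM in gilts 1 and 2, at differences that stayed under 2-fold for most of them. Of 27 tested genes, 24 were lower in CM in both gilts 1 and 2, and their median in gilts 1, 2 and 3 was -0.75, -0.41 and 0.79. A single member was called, ACTC1, the cardiac actin, with 3 pairs and without pair 3, and it was higher in LM. Of all genes tested, 0.622% were higher in LM and 7.87% in CM in both analyses. The list median was -0.10 with 3 pairs and -0.57 without pair 3, beside 0.34 and 0.11 for all genes tested, and at an unadjusted p below 0.05, 13 members were lower in CM without pair 3 and 2 with 3 pairs. The summed level of the list was 39330, 54430 and 36330 TPM in CM and 66120, 70940 and 27950 TPM in LM, so that the LM library of gilt 3 had the lowest sum of the 6.

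**Figure D2:**
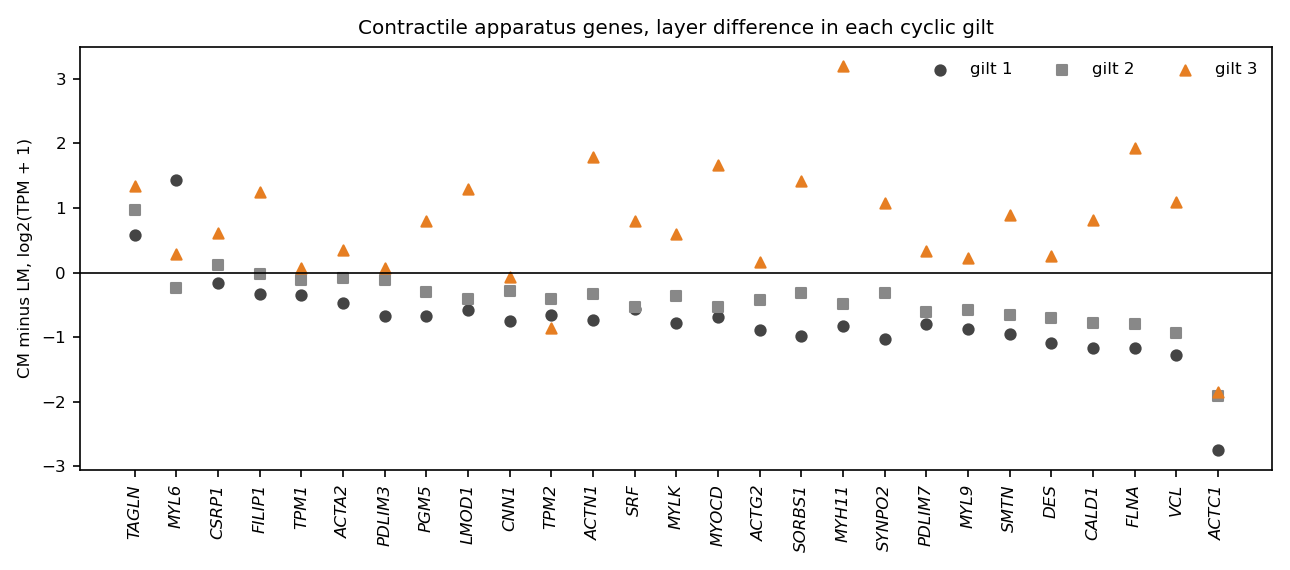
CM minus LM difference on the log2(TPM + 1) scale of the 27 tested contractile apparatus genes in each cyclic gilt, ordered by the mean of gilts 1 and 2. Nearly all points of gilts 1 and 2 are below 0, whereas most points of gilt 3 (triangles) are above 0, MYH11 at 3.20, and ACTC1 is below 0 in all 3 gilts.

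The caldesmon gene CALD1, whose product binds actin, was at 509, 643 and 537 TPM in CM and 1150.2, 1102 and 304 TPM in LM. Its LM values were about 2-fold above CM in gilts 1 and 2 and lower than CM in gilt 3. CALD1 was at -0.38 ± 0.36 and -0.98 ± 0.24 (adjusted p = 0.47 and 0.029), which missed the fold threshold without pair 3. The focal adhesion gene VCL was at -0.37 ± 0.44 and -1.10 ± 0.35 (adjusted p = 0.57 and 0.062), the actin crosslinker FLNA at -0.01 ± 0.52 and -0.98 ± 0.30 (adjusted p = 0.99 and 0.057), and DES, the intermediate filament desmin, at -0.51 ± 0.33 and -0.89 ± 0.32 (adjusted p = 0.30 and 0.092). MYH11 (0.62 ± 0.64 and -0.66 ± 0.28, adjusted p = 0.50 and 0.14) and the contractile protein gene SMTN (-0.24 ± 0.38 and -0.80 ± 0.31, adjusted p = 0.67 and 0.11) did not pass. ACTC1 was at 4.39, 3.69 and 1.76 TPM in CM and 35.3, 16.6 and 8.90 TPM in LM, without overlap between the layers, a difference of -2.17 ± 0.51 and -2.33 ± 0.63 (adjusted p = 0.017 and 0.038). Its call ended without pair 1, at -1.88 (adjusted p = 0.078). TAGLN and MYL6 are listed at only 4.73 to 21.1 TPM and 0.382 to 2.75 TPM, far below the other contractile genes, and reads of near-identical copies cannot be told apart in this table.

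Neurotrophic factors and receptors, which guide the growth and survival of nerve fibers, were called in LM more than in CM without pair 3. Of 13 tested genes, 1 was higher in CM (GFRA3, 2.16) and 2 in LM with 3 pairs, and 0 and 5 without pair 3. Of all genes tested, 12.8% and 0.99% were called in CM and LM with 3 pairs, and 8.42% and 1.56% without pair 3. At an unadjusted p below 0.05 by limma, 1 member of the list was higher in CM without pair 3. The list median was -0.43 with 3 pairs and -1.01 without pair 3. GFRA2, the neurturin receptor, was at 17.6, 13.6 and 5.82 TPM in CM and 113, 75.7 and 9.92 TPM in LM. It was several fold higher in LM in gilts 1 and 2 and less than 2-fold higher in gilt 3. GFRA2 differed by -1.90 ± 0.43 and -2.51 ± 0.40 (adjusted p = 0.015 and 0.0064), and was not called without pair 1, -1.54 (adjusted p = 0.078), or pair 2, -1.65 (adjusted p = 0.059). NTF3, the neurotrophin-3 gene, was at 2.30, 7.14 and 3.85 TPM in CM and 6.39, 19.9 and 7.54 TPM in LM, higher in LM within every gilt although the layers overlapped between gilts, and differed by -1.11 ± 0.26 and -1.26 ± 0.30 (adjusted p = 0.018 and 0.024). The NTF3 call ended without pair 1, -1.09 (adjusted p = 0.069), and without pair 2, -0.99 (adjusted p = 0.069). CNTFR, NGFR and GFRA4 were called only without pair 3, at -1.74, -1.08 and -1.37. The list summed to 222, 294 and 143 TPM in CM and 533, 512 and 71.0 TPM in LM. Nerve and glia markers, as another cell type whose RNA could move with this list, gave 259, 271 and 209.5 TPM in CM and 306, 249 and 41.6 TPM in LM, and their part in the result was not tested.

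Several leading genes of the LM side were of low abundance and differed by a like amount in all 3 gilts. TRHDE, which degrades thyrotropin-releasing hormone, was at 2.98, 3.81 and 2.35 TPM in CM and 25.6, 23.1 and 15.1 TPM in LM. VXN, which encodes vexin, was at 3.36, 5.47 and 6.28 TPM in CM and 27.1, 28.5 and 39.8 TPM in LM, and LVRN, an aminopeptidase, at 1.58, 1.27 and 2.91 TPM in CM and 9.38, 8.53 and 16.6 TPM in LM. In each of these genes the layers were apart in all 3 gilts, and gilt 3 was not the lowest LM library for VXN and LVRN. TRHDE differed by -2.44 ± 0.28 and -2.53 ± 0.33 (adjusted p = 0.00089 and 0.0040). VXN differed by -2.45 ± 0.34 and -2.44 ± 0.42 (adjusted p = 0.0017 and 0.0085) and LVRN by -2.08 ± 0.18 and -2.04 ± 0.21 (adjusted p = 0.00053 and 0.0022). The adhesion gene NEGR1 (-2.13 and -2.09), the chemokine CXCL12 (-1.50 and -1.46) and the axon guidance gene SEMA3E (-1.69 and -1.60) were also higher in LM in both analyses, as was GATA6, a transcription factor (-1.65 and -2.05), the last named after its values were seen. GATA6 was not called without pair 2, at -1.27 (adjusted p = 0.054). MGAM2, a maltase-glucoamylase gene, was at 5.69, 5.33 and 1.38 TPM in CM and 42.8, 47.9 and 2.07 TPM in LM, a large difference in gilts 1 and 2 and a small one in gilt 3. MGAM2 was at -2.01 ± 0.54 and -2.83 ± 0.49 (adjusted p = 0.030 and 0.0085), and its call ended without pair 1, -1.66 (adjusted p = 0.12), and without pair 2, -1.54 (adjusted p = 0.11). U12 and SNORA66, small nuclear and nucleolar RNAs, were each called in 1 of the analyses (-2.32 ± 0.72, adjusted p = 0.049 with 3 pairs and -2.76 ± 0.78, adjusted p = 0.043 without pair 3).

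Epithelial genes had the largest median difference of the 41 gene lists, with and without pair 3, and were higher in CM. Of 22 tested genes of luminal and glandular epithelium, 20 were higher in CM and 0 in LM with 3 pairs. Without pair 3 the counts were 17 and 1. For all genes tested, the shares were 12.8% and 0.99% with 3 pairs and 8.42% and 1.56% without pair 3. The list median was 3.18 with 3 pairs and 2.83 without pair 3, and 2.56, 2.93 and 3.70 in gilts 1, 2 and 3. CDH1, the epithelial cadherin, was at 140.2, 75.5 and 101 TPM in CM and 17.5, 6.05 and 1.499 TPM in LM. EPCAM, an epithelial adhesion molecule, was at 110.4, 51.8 and 75.4 TPM in CM and 14.8, 5.86 and 3.99 TPM in LM, and KRT18, a keratin of simple epithelia, at 111, 56.8 and 87.9 TPM in CM and 10.6, 3.43 and 6.25 TPM in LM. The CM values of all 3 genes were above all LM values, and the LM values differed more between gilts than the CM values did. CDH1 differed by 3.91 ± 0.69 and 3.19 ± 0.78 (adjusted p = 0.0045 and 0.027), EPCAM by 3.23 ± 0.56 and 2.88 ± 0.69 (adjusted p = 0.0042 and 0.025) and KRT18 by 3.53 ± 0.59 and 3.49 ± 0.75 (adjusted p = 0.0034 and 0.017). The call of CDH3, the placental cadherin, was the single one higher in LM (without pair 3, -1.41 ± 0.38, adjusted p = 0.038), and it was at 79.7, 123.1 and 49.8 TPM in CM and 253, 277 and 24.7 TPM in LM. In summed TPM the list was at 3507, 2516 and 4398 TPM in CM and 808, 574 and 379 TPM in LM. The CM layer borders the endometrium, which had been cut away by scalpel. In bulk tissue, endometrium left on the CM samples, epithelial cells within the layer and more RNA per cell cannot be told apart. In pregnant LM, KRT18 was at 30.8 TPM in library 2 of day 15 and at 0.374 to 1.88 TPM otherwise. TACR1 and SLC6A2 were at 4.13 and 5.52 TPM in that library. Other pregnant LM held 0 to 0.126 TPM of TACR1 and 0.0589 to 0.956 TPM of SLC6A2. The part of epithelial RNA in the CM calls outside this list was not tested.

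Genes of motile cilia, the beating organelles of ciliated epithelial cells, were higher in CM as well. Of 21 tested genes, 19 were higher in CM with 3 pairs and 18 without pair 3, compared with 12.8% and 8.42% of all genes tested. In LM, 0 were higher (0 also at an unadjusted p below 0.05 in either limma analysis). With LM shares of 0.99% and 1.56% of all genes tested, 0 LM calls in a list this short say little. The list median was 2.20 with 3 pairs and 1.96 without pair 3. FOXJ1, the transcription factor that starts motile ciliogenesis (chromosome 12, 5307370 to 5312117), was at 115, 85.7 and 129 TPM in CM and 13.8, 7.49 and 2.72 TPM in LM. The axonemal genes RSPH4A, a radial spoke protein, and TEKT2, a tektin, were at 22.7, 14.1 and 27.8 TPM in CM and 2.54, 1.54 and 2.61 TPM in LM, and at 13.2, 9.86 and 11.8 TPM in CM and 1.19, 1.10 and 1.96 TPM in LM. CM exceeded LM by at least several fold in every gilt for these genes. FOXJ1 differed by 3.82 ± 0.59 and 3.16 ± 0.64 (adjusted p = 0.0024 and 0.014), RSPH4A by 2.77 ± 0.34 and 2.66 ± 0.42 (adjusted p = 0.0011 and 0.0063) and TEKT2 by 2.39 ± 0.25 and 2.54 ± 0.29 (adjusted p = 0.00080 and 0.0029). By symbol, 28 of 40 tested CFAP genes, 6 of 8 axonemal dynein heavy chains and 5 of 6 radial spoke head genes were higher in CM in both analyses, and 0 of them were higher in LM. These families were counted after the values were seen and overlap with the list. Of all genes tested, 7.87% were higher in CM and 0.622% in LM in both analyses.

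**Figure D3:**
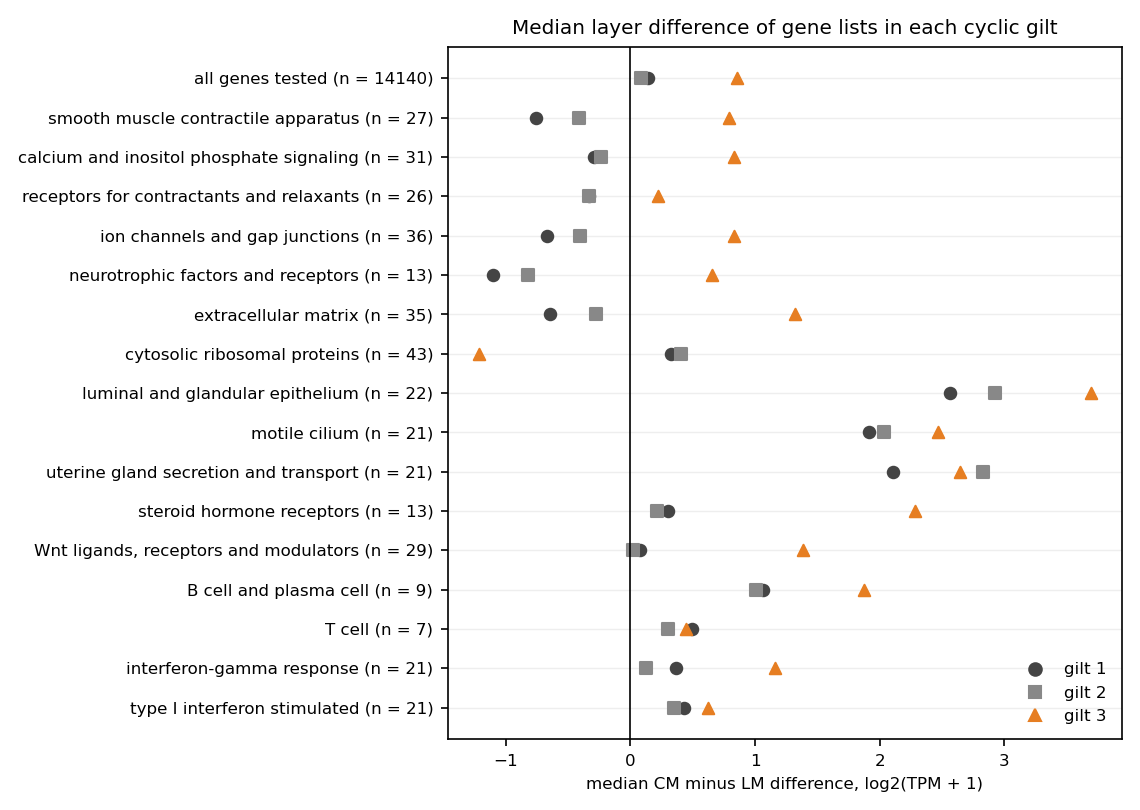
Median CM minus LM difference of all genes tested and of 16 gene lists in each cyclic gilt, on the log2(TPM + 1) scale. The epithelial, cilium and gland lists are above 1.9 in all 3 gilts, the contractile, ion channel and matrix lists are below 0 in gilts 1 and 2 and above 0 in gilt 3, and ribosomal protein genes are at -1.22 in gilt 3.

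Products of uterine glands and transporters were higher in CM too. Of 21 tested genes, 13 were higher in CM with 3 pairs and 10 without pair 3, all 10 in both analyses. The shares of all genes tested were 12.8% and 8.42%, and 7.87% in both analyses. In LM, 0 of the list were higher (0 also at an unadjusted p below 0.05 by limma), beside 0.99% and 1.56% of all genes tested. The list median was 3.16 with 3 pairs and 2.71 without pair 3. The zinc transporter SLC39A2 was at 493, 716 and 749.5 TPM in CM and 49.4, 36.6 and 47.9 TPM in LM. RBP4, the retinol-binding protein secreted by glands, was at 113, 119.9 and 90.9 TPM in CM and 15.4, 4.63 and 13.7 TPM in LM, and the protease TMPRSS2 at 192, 174 and 352 TPM in CM and 19.8, 11.7 and 10.9 TPM in LM. For all 3 genes the lowest CM value was above the highest LM value. SLC39A2 differed by 3.83 ± 0.50 and 3.77 ± 0.63 (adjusted p = 0.0013 and 0.0076), RBP4 by 3.29 ± 0.54 and 3.61 ± 0.65 (adjusted p = 0.0031 and 0.0093) and TMPRSS2 by 3.96 ± 0.57 and 3.50 ± 0.67 (adjusted p = 0.0019 and 0.011). SAL1, a salivary lipocalin, was the most abundant of the list, at 10874, 3279.7 and 2308 TPM in CM and 1079.5, 286 and 355 TPM in LM, with the CM value of gilt 1 more than 3-fold above those of gilts 2 and 3. SAL1 differed by 3.18 ± 0.77 and 3.42 ± 0.98 (adjusted p = 0.020 and 0.045), and its call ended without pair 1, 3.11 (adjusted p = 0.069), and without pair 2, 3.01 (adjusted p = 0.062). The water and glycerol channel AQP3 was called with 3 pairs alone (3.63 ± 0.89 and 3.21 ± 1.12, adjusted p = 0.020 and 0.083).

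Metal handling and transport across epithelia added further genes to the CM side. The metallothionein genes MT1X and MT3, whose products bind zinc and copper, were at 2863, 2247 and 2389 TPM in CM and 248, 142 and 170.4 TPM in LM, and at 96.7, 132 and 112 TPM in CM and 6.36, 5.65 and 14.1 TPM in LM. Both were several fold higher in CM in every gilt, MT1X by 3.77 ± 0.72 and 3.75 ± 0.92 (adjusted p = 0.0066 and 0.027) and MT3 by 3.65 ± 0.64 and 4.03 ± 0.79 (adjusted p = 0.0043 and 0.012), and reads shared between metallothionein copies cannot be told apart here. The sodium channel SCNN1A (3.44 and 2.93), the chloride channel CFTR (2.59 and 2.37) and the tight junction gene CLDN10 (3.12 and 3.35), which were named after their values were seen, were higher in CM in both analyses. Among 10 tested claudins, 3 were higher in CM and 1 in LM in both analyses, compared with 7.87% and 0.622% of all genes tested. The claudin higher in LM was CLDN1, at 99.7, 40.5 and 54.8 TPM in CM and 161, 151 and 126 TPM in LM. CLDN1 differed by -1.25 ± 0.28 and -1.28 ± 0.33 (adjusted p = 0.015 and 0.033), without overlap between the layers, and was not called without pair 2, at -0.94 (adjusted p = 0.069). Of 221 tested solute carrier genes, 21 were higher in CM in both analyses, a share near the 7.87% of all genes tested, and 0 were higher in LM in both (2 without pair 3). Other leading genes of the CM side were the transmembrane channel-like gene TMC4 (4.01 and 3.35), the sorting receptor SORL1 (4.0 and 3.18), the carboxylesterase CES3 (4.0 and 3.38), the glycosyltransferases B4GALNT3 (3.94 and 3.09) and FUT2 (3.86 and 3.28), FAM162B (3.49 and 3.73) and the neuromedin B gene NMB (2.91 and 3.77). NMB was at 29.0, 54.8 and 8.14 TPM in CM and 1.36, 2.80 and 3.02 TPM in LM, and its call ended without pair 1, 2.53 (adjusted p = 0.070), and without pair 2, 2.43 (adjusted p = 0.061). SYT13, a synaptotagmin, was called with 3 pairs alone (3.89 ± 0.81 and 3.28 ± 0.98, adjusted p = 0.0099 and 0.051). The epithelial list was also higher in CM, the direction of these genes other than CLDN1, and its part in their difference was not tested.

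Receptors and partners of steroid hormones were unevenly divided. PGR, the progesterone receptor, was at 23.9, 33.3 and 40.9 TPM in CM and 32.1, 49.7 and 43.1 TPM in LM. The layers overlapped, and PGR was not called (-0.35 ± 0.19 and -0.49 ± 0.17, adjusted p = 0.21 and 0.083). ESR1, the estrogen receptor alpha, was at 245, 154 and 164 TPM in CM and 116, 92.5 and 20.8 TPM in LM, higher in CM in every gilt. It was called with 3 pairs and not without pair 3 (1.57 ± 0.42 and 0.90 ± 0.33, adjusted p = 0.028 and 0.095), and the LM library of gilt 3 was the lowest of the 6. PGRMC1, a membrane-associated heme protein of the progesterone receptor membrane component family, was at 1219, 1008 and 1679 TPM in CM and 317, 261 and 233 TPM in LM, and differed by 2.24 ± 0.30 and 1.94 ± 0.31 (adjusted p = 0.0014 and 0.0062). The chaperone FKBP4, which assists steroid receptors, differed by 1.77 ± 0.27 and 1.43 ± 0.22 (adjusted p = 0.0022 and 0.0061), and GREB1, an estrogen-regulated gene, by 2.80 ± 0.46 and 2.38 ± 0.53 (adjusted p = 0.0032 and 0.019). In pregnant LM, GREB1 was at 17.1 TPM in library 2 of day 15, where EPCAM was high, and 0.125 to 0.506 TPM otherwise. PGRMC1 was at 320 TPM in that library and 125 to 175 TPM otherwise, and FKBP4 at 399 and 206 to 375 TPM. The part of epithelial RNA in these differences was not tested. Of 13 tested genes of the steroid hormone receptor list, 4 were higher in CM with 3 pairs and 3 without pair 3. The shares of all genes tested were 12.8% and 8.42%. In LM, 0 of the list were higher (0 and 1 at an unadjusted p below 0.05 by limma).

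Wnt pathway genes were called in both directions. Of 29 tested genes, 4 were higher in CM and 2 in LM in both analyses, and 8 and 2 were called with 3 pairs. Among all genes tested, the shares were 7.87% and 0.622% in both analyses and 12.8% and 0.99% with 3 pairs. SFRP2, a secreted Wnt modulator (chromosome 8, 75337311 to 75345926), was at 54.6, 119 and 52.4 TPM in CM and 383, 611 and 115 TPM in LM. The lowest LM value was just below the highest CM value, but LM exceeded CM in every gilt. SFRP2 differed by -2.09 ± 0.41 and -2.57 ± 0.42 (adjusted p = 0.0073 and 0.0069), and DKK2, a second secreted modulator, at 20.2, 24.9 and 22.8 TPM in CM and 55.8, 62.4 and 45.5 TPM in LM, by -1.23 ± 0.24 and -1.36 ± 0.26 (adjusted p = 0.0070 and 0.011). On the CM side, LEF1, a transcription factor of the pathway, was at 63.3, 65.3 and 136 TPM in CM and 16.4, 9.09 and 6.34 TPM in LM, and NOTUM, an enzyme that removes the lipid of Wnt proteins, at 179, 47.2 and 106 TPM in CM and 26.2, 7.61 and 3.91 TPM in LM. The layers were apart for both, LEF1 by 2.94 ± 0.39 and 2.30 ± 0.30 (adjusted p = 0.0014 and 0.0040) and NOTUM by 3.22 ± 0.65 and 2.61 ± 0.75 (adjusted p = 0.0085 and 0.045). WNT2 was called with 3 pairs alone (1.29 ± 0.35 and 1.11 ± 0.41, adjusted p = 0.030 and 0.099). In LM library 2 of day 15 of pregnancy, where EPCAM was high, LEF1 was at 35.6, NOTUM at 7.18 and WNT2 at 10.4 TPM. Other pregnant LM held 4.62 to 8.87, 0.395 to 3.03 and 4.65 to 14.2 TPM. The part of epithelial RNA in these CM calls was not tested.

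The HOX genes, transcription factors that set position along the body axis, were divided by cluster. All 7 tested genes of the HOXB cluster (HOXB2 to HOXB8, on chromosome 12 where matched to RefSeq) were higher in CM in both analyses. The share of all genes tested was 7.87%. The cluster median was 2.29 with 3 pairs and 1.97 without pair 3. HOXB6 was at 227, 145 and 169 TPM in CM and 60.03, 33.0 and 12.2 TPM in LM. HOXB7 was at 33.4, 22.7 and 38.3 TPM in CM and 6.57, 4.07 and 10.1 TPM in LM, and HOXB8 at 23.9, 12.9 and 26.5 TPM in CM and 4.58, 1.04 and 1.31 TPM in LM. Within each gene the lowest CM value was above the highest LM value. HOXB6 differed by 2.56 ± 0.43 and 2.0 ± 0.42 (adjusted p = 0.0034 and 0.015), HOXB7 by 2.08 ± 0.44 and 2.20 ± 0.55 (adjusted p = 0.011 and 0.028) and HOXB8 by 2.83 ± 0.43 and 2.46 ± 0.50 (adjusted p = 0.0023 and 0.014). HOXB2 had the smallest difference of the cluster, 1.20 ± 0.22 and 1.02 ± 0.21 (adjusted p = 0.0052 and 0.016), and with 3 pairs it was below the fold threshold after median-ratio scaling (0.80) and quantile normalization (0.77). In LM library 2 of day 15 of pregnancy, where EPCAM was high, HOXB6, HOXB7 and HOXB8 were at 109, 7.99 and 5.02 TPM. Other pregnant LM held 31.2 to 59.0, 1.70 to 4.81 and 0.425 to 1.01 TPM. HOXB2 and HOXB3, at 30.3 and 49.5 TPM in that library, lay within the range of other pregnant LM. The part of epithelial RNA in the HOXB differences was not tested.

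**Figure D4:**
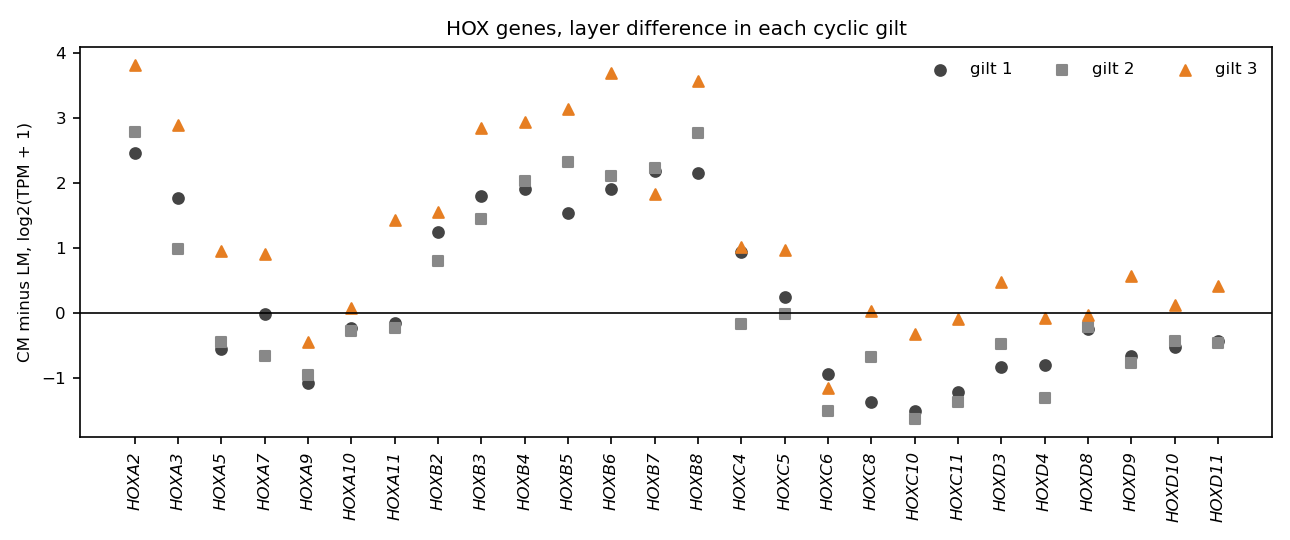
CM minus LM difference on the log2(TPM + 1) scale of 26 HOX genes in each cyclic gilt, ordered by cluster and number. The HOXB genes, HOXA2 and HOXA3 are above 0.7 in all 3 gilts, whereas HOXA9, HOXC6, HOXC10 and HOXC11 are below 0 in all 3.

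In the HOXA cluster on chromosome 18, the low-numbered genes HOXA2 and HOXA3 were higher in CM in both analyses and HOXA5 to HOXA11 were not. HOXA2 was at 52.3, 25.3 and 39.5 TPM in CM and 8.72, 2.85 and 1.88 TPM in LM, a difference of 3.02 ± 0.55 and 2.62 ± 0.66 (adjusted p = 0.0051 and 0.029). HOXA10, at 248, 266 and 191 TPM in CM and 292, 324 and 182 TPM in LM, and HOXA11, at 256, 296 and 172 TPM in CM and 284, 346 and 63.1 TPM in LM, were among the most abundant HOX genes and did not differ beyond their spread (-0.15 ± 0.19, adjusted p = 0.60 and 0.35 ± 0.30, adjusted p = 0.43 with 3 pairs). HOXA9 was at 33.7, 42.8 and 20.9 TPM in CM and 72.3, 83.9 and 28.8 TPM in LM, higher in LM within every gilt and past the fold threshold only without pair 3 (-0.83 ± 0.23 and -1.02 ± 0.23, adjusted p = 0.033 and 0.019). In the HOXC cluster on chromosome 5, 0 of 6 genes were higher in CM in either analysis. Of all genes tested, 12.8% were higher in CM with 3 pairs and 8.42% without pair 3. In a cluster of 6 genes, 0 calls do not show a difference from these shares. HOXC10 was at 2.62, 3.73 and 0.889 TPM in CM and 9.34, 13.6 and 1.38 TPM in LM, higher in LM within every gilt although the layers overlapped, and differed by -1.16 ± 0.30 and -1.57 ± 0.27 (adjusted p = 0.024 and 0.0085), and its call ended without pair 1, -0.98 (adjusted p = 0.11), and without pair 2, -0.92 (adjusted p = 0.10). HOXC8 and HOXC11 (-1.03 and -1.30) were called higher in LM without pair 3 alone. The 6 tested HOXD genes had a median of -0.28 with 3 pairs and -0.57 without pair 3, and HOXD4 was called without pair 3 (-1.05 ± 0.27, adjusted p = 0.030). These clusters were chosen after the values were seen.

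Of 21 tested homeobox and patterning factors, some of them HOX genes, 5 were higher in CM and 2 in LM with 3 pairs. Without pair 3 the counts were 5 and 4. For all genes tested, the shares were 12.8% and 0.99% with 3 pairs and 8.42% and 1.56% without pair 3. The list median was -0.16 with 3 pairs and -0.48 without pair 3, and 16 members were lower in CM in both gilts 1 and 2. The members higher in CM in both analyses were HOXB6, HOXB7, MSX1, MSX2 and PAX2, and PRRX2 was higher in LM in both. MSX1, a homeobox gene of the uterine epithelium, was at 317, 167 and 231 TPM in CM and 44.3, 20.3 and 10.2 TPM in LM, and PAX2, a paired box factor of the Muellerian duct, at 88.1, 54.4 and 82.8 TPM in CM and 13.3, 8.07 and 1.20 TPM in LM. Both were apart between the layers in every gilt. MSX1 differed by 3.39 ± 0.66 and 2.89 ± 0.80 (adjusted p = 0.0075 and 0.040) and PAX2 by 3.50 ± 0.63 and 2.62 ± 0.63 (adjusted p = 0.0051 and 0.024). Without pair 3, the MSX1 call was kept in 7 of 12 other settings and ended after median-ratio scaling. The PAX2 call without pair 3 was kept in 9 of 12.

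Among immune genes, some plasma cell markers had more TPM in CM than in LM. JCHAIN, which joins immunoglobulin units for secretion, was at 96.4, 55.8 and 204 TPM in CM and 10.3, 5.84 and 33.0 TPM in LM. MZB1, a plasma cell chaperone, was at 23.4, 6.59 and 51.3 TPM in CM and 3.05, 1.67 and 10.6 TPM in LM. CM exceeded LM within every gilt, and both layers of gilt 3 were the highest of their layer. JCHAIN differed by 2.92 ± 0.40 and 3.08 ± 0.48 (adjusted p = 0.0015 and 0.0062) and MZB1 by 2.09 ± 0.33 and 2.05 ± 0.41 (adjusted p = 0.0028 and 0.014). In the list of 9 tested B cell and plasma cell genes, 5 were higher in CM with 3 pairs and 4 without pair 3, among them PIGR, an antibody transporter of epithelial cells. The plasma cell receptor TNFRSF17 (0.48 and 0.27), the secretory cell factor XBP1 (0.97 and 0.99) and the B cell marker CD79A, at 0.829 to 2.33 TPM, were among those not called. In 7 T cell, 7 cytotoxic, 14 macrophage, 21 interferon-gamma response and 7 MHC class II genes, 0 were called by limma in either analysis. The shares of all genes tested in CM were 12.8% with 3 pairs and 8.42% without pair 3. In lists this short, 0 calls do not show that the layers were alike. At an unadjusted p below 0.05 by limma, 3, 2, 1, 6 and 0 genes of these lists were higher in CM with 3 pairs, and 1, 1, 0, 2 and 0 without pair 3. The macrophage marker CD68 was at 15.7, 21.0 and 23.1 TPM in CM and 22.5, 25.4 and 7.62 TPM in LM, with overlapping layers, and CD163 was at 11.2, 20.6 and 14.4 TPM in CM and 16.2, 20.1 and 6.68 TPM in LM.

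Type I interferon-stimulated genes were high in both layers of gilt 3. Their summed level was 1006, 650.3 and 2673 TPM in CM and 521, 476 and 2279 TPM in LM, with no overlap between gilt 3 and the other cyclic gilts. IFI6 was at 382, 175 and 1338 TPM in CM and 80.3, 68.6 and 1204 TPM in LM. ISG15 was at 34.8, 27.1 and 148 TPM in CM and 24.4, 25.7 and 309 TPM in LM, and IFIT1 at 12.0, 9.26 and 45.9 TPM in CM and 9.35, 5.66 and 86.3 TPM in LM. In these genes each layer of gilt 3 was at least 3-fold above the other gilts, which with 1 gilt cannot be tested. Of 21 tested genes, 3 were higher in CM with 3 pairs (HERC5, ZBP1 and OAS2) and 2 without pair 3 (IFI6 and BST2), and none of the list was called in both. These counts were near the shares of all genes tested, 12.8% with 3 pairs and 8.42% without pair 3. ISG12(A), an interferon-inducible gene outside this list, was at 349, 312 and 1035 TPM in CM and 67.8, 51.3 and 648 TPM in LM and was called in both analyses (1.87 ± 0.47 and 2.46 ± 0.47, adjusted p = 0.022 and 0.011). With 3 pairs its call ended after median-ratio scaling and without the replicate block, without pair 1, 1.63 (adjusted p = 0.092), and without pair 2, 1.51 (adjusted p = 0.087). HBB, the beta globin of red blood cells, was also high in gilt 3, at 322, 368 and 1200.1 TPM in CM and 142, 90.3 and 1479.7 TPM in LM. HBB was not called (0.96 ± 0.49 and 1.60 ± 0.50, adjusted p = 0.19 and 0.059), and the part of blood in the layer differences was not tested.

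Prostaglandin and growth factor genes added few calls. Of 11 tested genes of prostaglandin synthesis and breakdown, TBXAS1, the thromboxane synthase, was higher in CM with and without pair 3, and 0 were higher in LM (1 at an unadjusted p below 0.05 by limma in each analysis). This count was near the share of all genes tested that were higher in CM in both analyses, 7.87%. TBXAS1 was at 12.3, 3.31 and 9.21 TPM in CM and 3.89, 0.701 and 0.980 TPM in LM. It was higher in CM within every gilt, with overlap between gilts, and differed by 1.72 ± 0.36 and 1.39 ± 0.41 (adjusted p = 0.0098 and 0.048). The TBXAS1 call without pair 3 was kept in 4 of 12 other settings and ended after median-ratio scaling and quantile normalization. PTGES, a prostaglandin E synthase, was about 2-fold higher in LM within every gilt, at 48.4, 102 and 54.3 TPM in CM and 108, 188 and 102 TPM in LM, and did not pass (-0.97 ± 0.27 and -1.01 ± 0.31, adjusted p = 0.032 and 0.055). In the insulin-like growth factor system, IRS1 (1.60 and 0.96) and IGFBP2 (1.22 and 0.87) of 11 tested genes were higher in CM with 3 pairs and 0 were called without pair 3 (1 higher in CM and 3 higher in LM at an unadjusted p below 0.05). The shares of all genes tested in CM were 12.8% with 3 pairs and 8.42% without pair 3.

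Markers of other cells in the muscle wall were checked beside these results. The endothelial adhesion gene PECAM1 was at 42.8, 51.5 and 52.6 TPM in CM and 47.6, 44.0 and 28.1 TPM in LM, and CDH5, the cadherin of blood vessels, at 54.0, 71.4 and 59.4 TPM in CM and 60.1, 64.7 and 7.14 TPM in LM. Both overlapped between the layers and were lowest in LM of gilt 3. Of 11 tested markers of blood endothelium, 0 were called by limma (4 higher in CM at an unadjusted p below 0.05 with 3 pairs and 0 without pair 3). Beside this and the counts below, 12.8% of all genes tested were higher in CM with 3 pairs and 8.42% without pair 3. Few or 0 calls in lists this short do not show that the layers were alike. Among 11 fibroblast markers, C7 and PDGFRA were higher in CM with 3 pairs only (C7 1.35 and 0.90, PDGFRA 1.38 and 0.73). BNC1 was the 1 of 4 tested markers of the mesothelium, the cells of the uterine surface, that was called (2.11 and 1.78), higher in CM with 3 pairs only. Cell cycle genes were called once among 18 (TYMS, 1.07 and 0.85, with 3 pairs only).

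The LM library of gilt 3 departed from the other LM libraries in particular groups. On the log2 scale, its median departure from the mean of the LM libraries of gilts 1 and 2 was -2.61 for extracellular matrix genes, -1.52 for contractile genes and -0.69 for all genes tested. In contrast, it was 2.01 for ribosomal protein genes and 1.15 for nuclear oxidative phosphorylation genes. COL1A1, the main fibrillar collagen chain, was at 10573, 8372 and 3426 TPM in CM and 21026, 13630.1 and 723 TPM in LM. The perlecan gene HSPG2 was at 339.7, 495 and 161 TPM in CM and 978, 1142 and 38.6 TPM in LM, and PLEC, a large cytoskeletal linker, at 136, 138 and 65.9 TPM in CM and 194, 224 and 6.25 TPM in LM. Each was the lowest in LM of gilt 3 by more than 5-fold against the other LM libraries, and CM of gilt 3 was lower than the other CM libraries to a smaller extent. In the opposite direction ADIRF was at 110.4, 144 and 338 TPM in CM and 31.0, 35.7 and 796 TPM in LM, RPL14, a ribosomal protein, at 975, 976 and 1652 TPM in CM and 738, 703 and 5724 TPM in LM, and TNNC1, a troponin, at 3.22, 2.30 and 6.09 TPM in CM and 4.91, 4.37 and 46.4 TPM in LM. DCN, a small matrix proteoglycan of fibroblasts, was not low in this library, at 4244, 5323 and 5115 TPM in CM and 7888, 6554 and 10437 TPM in LM. The genes farthest below, all over 10 TPM on average in LM, were NEURL1B, ADRA2A, PLEC, COL5A1, SCUBE1, HSPG2, COL4A2, LAMA5, TNXB and COL1A1. By the genomic span of the gene in RefSeq, an upper limit of transcript length, the median departure was -0.05 for spans up to 1 kb (26 genes) and went from 0.20 for spans of 1 to 2 kb (134 genes) to -1.13 for spans over 100 kb (2121 genes). The part of gene length in this departure was not tested. In gilts 1 and 2 the median layer difference of the same bins was -0.05 and -0.17 up to 1 kb, 0.28 and 0.24 at 1 to 2 kb and -0.02 and 0.01 over 100 kb.

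Of the 41 lists, this library departed most in extracellular matrix genes. Of 35 tested genes, 25 were lower in CM in both gilts 1 and 2, and the median by gilt was -0.64, -0.27 and 1.32. The 3-pair median of 0.15 became -0.27 after median-ratio scaling. With 3 pairs, 0 were called by limma (1 higher in CM and 4 higher in LM at an unadjusted p below 0.05), compared with 12.8% and 0.99% of all genes tested. Without pair 3, FN1, the fibronectin gene, was called higher in LM, at 262, 552 and 135 TPM in CM and 788, 1123 and 97.4 TPM in LM, a difference of -0.71 ± 0.35 and -1.30 ± 0.24 (adjusted p = 0.17 and 0.0096). HSPG2 and the laminin gene LAMA5, which were not in the list, were also higher in LM only without pair 3 (-1.36 and -1.14, and -0.23 and 0.09 with 3 pairs).

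Next, the layer difference of the cyclic gilts was compared with that of the pregnant gilts by a test of the difference itself, the cyclic difference minus the mean of the differences on days 12 and 15 of pregnancy. With 3 pairs, 26 genes were more positive in the cyclic gilts (0.184%) and 6 were more negative (0.0424%). Without pair 3, 57 genes were more positive (0.403%) and 28 more negative (0.198%), and all 32 genes called with 3 pairs were among them in the same direction. Both analyses share pairs 1 and 2 and the pregnant libraries. Without pair 1, 20 genes were more positive and 3 more negative, and without pair 2, 15 and 0 (537 more negative at an unadjusted p below 0.05 by limma), so that the more negative calls rested on pairs 1 and 2. Thus, for most genes named above no change of the layer difference was called, among them ADRA2A (2.30 ± 0.47 and 1.75 ± 0.39, adjusted p = 0.12 and 0.11), EPCAM (-1.32 ± 0.69 and -1.67 ± 0.79, adjusted p = 0.51 and 0.42) and MYH11 (1.97 ± 0.78 and 0.68 ± 0.32, adjusted p = 0.44 and 0.41). A missed threshold does not show that the layer differences were alike.

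The more positive genes included 4 of 43 tested ribosomal protein genes with 3 pairs and 5 without pair 3, compared with 0.184% and 0.403% of all genes tested, while the median of this difference over the list was -0.12 and 0.28. The genes of the list summed to 40700, 44810 and 55530 TPM in CM and 31980, 33920 and 148700 TPM in LM, so that the list as a whole was not low in LM of gilt 3. RPL23A was at 28.6, 29.4 and 53.6 TPM in CM and 1.06, 0.913 and 3.97 TPM in LM. In pregnant gilts it was at 14.7 to 36.1 TPM in CM and 13.4 to 34.7 TPM in LM. RPS29 was at 263, 437 and 507 TPM in CM and 21.1, 23.6 and 89.4 TPM in LM, and at 256 to 458 TPM in CM and 234 to 393 TPM in LM of pregnant gilts. The cyclic LM values of both genes thus lay below all 15 other libraries. The cyclic minus pregnant difference was 3.55 ± 0.26 and 3.70 ± 0.25, adjusted p = 0.00076 and 0.00044 for RPL23A, and 3.25 ± 0.35 and 3.71 ± 0.24, adjusted p = 0.0052 and 0.00044 for RPS29. RPL36A (3.68 ± 0.25 and 3.76 ± 0.24, adjusted p = 0.00076 and 0.00044) and RPS28 (2.51 ± 0.35 and 2.91 ± 0.25, adjusted p = 0.022 and 0.0022) were called as well, but RPS28 was not without pair 1, 2.26 (adjusted p = 0.13), or pair 2, 2.36 (adjusted p = 0.12). The layer difference within the cyclic gilts was 3.76 and 3.92 for RPL23A, 3.41 and 3.86 for RPS29, 3.36 and 3.44 for RPL36A and 3.06 and 3.46 for RPS28. Of the 43 ribosomal protein genes, 5 were higher in CM in both analyses, a share near that of all genes tested (7.87%), the fifth being RPL37 (1.60 and 1.98), and the list median of the layer difference was -0.02 with 3 pairs and 0.33 without pair 3. Many ribosomal protein genes have processed copies in the genome, and reads of such copies cannot be told apart in this table.

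**Figure D5:**
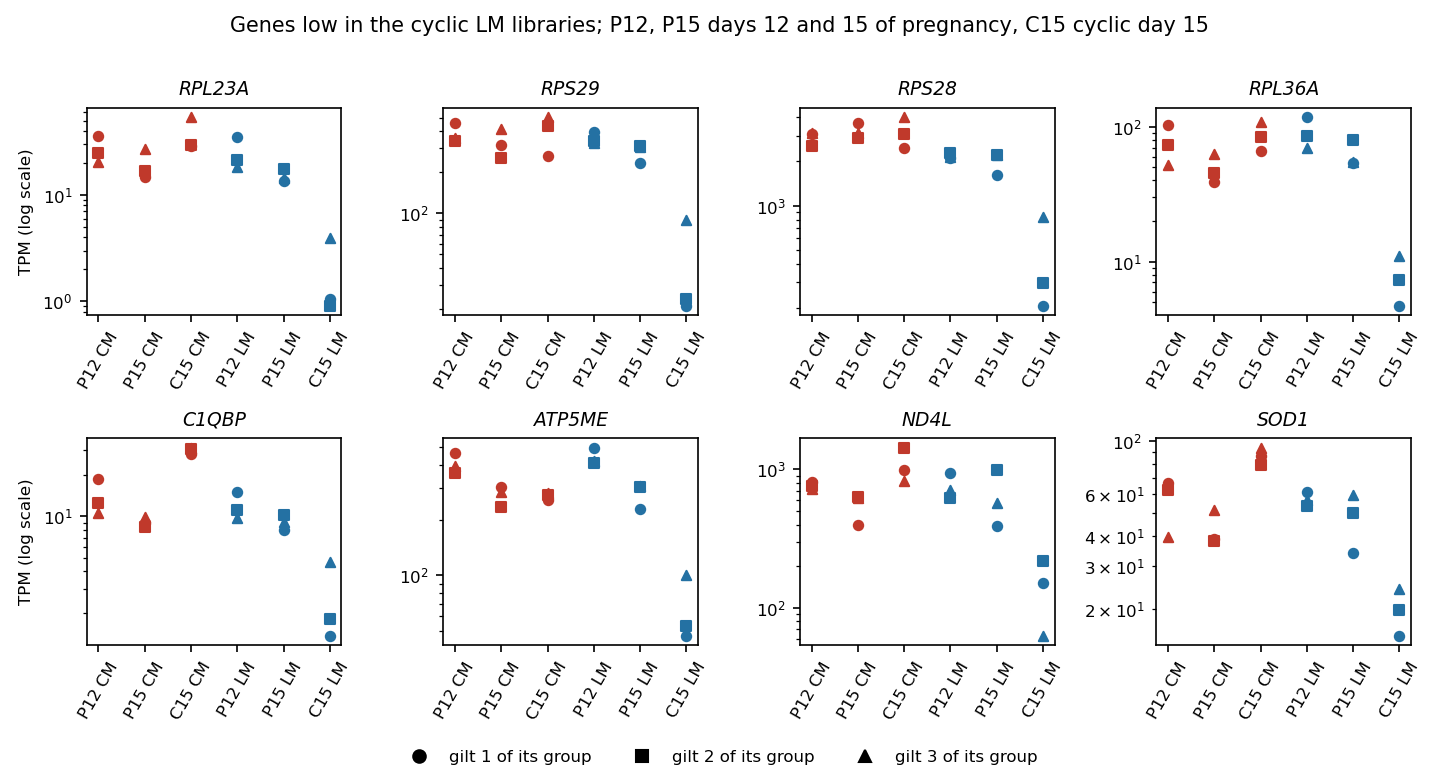
TPM on a log scale of 8 genes in all 18 libraries, by state and layer, with CM in red and LM in blue. The 3 cyclic LM libraries lie below the other 15 libraries for each gene, for RPL23A at 3.97 TPM or less, while cyclic CM lies within or above the range of the pregnant libraries.

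C1QBP, a mitochondrial matrix protein, followed the same pattern, at 28.2, 30.5 and 31.3 TPM in CM and 1.37, 1.83 and 4.71 TPM in LM, compared with 8.41 to 18.5 TPM in CM and 7.91 to 15.0 TPM in LM of pregnant gilts. Its difference from pregnancy was 3.10 ± 0.29 and 3.45 ± 0.20, adjusted p = 0.0021 and 0.00039. Here cyclic CM was above and cyclic LM was below every pregnant library. ATP5ME, a subunit of ATP synthase (2.16), ND4L, a mitochondrially encoded subunit of complex I (3.10), SOD1, the cytosolic superoxide dismutase (2.18), and PFN1, the actin-binding profilin (2.75), named after their values were seen, were called with 3 pairs, and without pair 3 at 2.47, 2.77, 2.27 and 2.59. The ATP5ME call ended without pair 1, 1.98 (adjusted p = 0.081), and without pair 2, 2.03 (adjusted p = 0.092). PRCD, a small disc protein of photoreceptors, was at 6.84, 7.46 and 5.27 TPM in CM and listed at 0 in all 3 cyclic LM libraries, while pregnant LM held 4.04 to 12.3 TPM. The transcript lengths behind the TPM values were not given in the sources used here, and their part in this pattern was not tested.

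Genes more negative in the cyclic gilts were fewer. CEBPD, a transcription factor of acute inflammatory signaling, was at 106, 143 and 385 TPM in CM and 143, 289.8 and 547 TPM in LM, against 80.4 to 168 TPM in CM and 37.3 to 83.5 TPM in LM of pregnant gilts. Cyclic LM was above all pregnant LM libraries, and within the cyclic gilts the layers differed by -0.65 ± 0.17 and -0.72 ± 0.16 (adjusted p = 0.029 and 0.018), below the fold threshold. The cyclic minus pregnant difference of CEBPD was -1.65 ± 0.21 and -1.73 ± 0.18, adjusted p = 0.014 and 0.0051, and without pair 2 it was -1.47 (adjusted p = 0.088). SPP1, the secreted adhesion protein osteopontin, was at 7.71, 14.8 and 9.28 TPM in CM and 4.97, 6.93 and 4.23 TPM in LM and at 17.1 to 158 TPM in pregnant CM, with a difference from pregnancy of -2.05 ± 0.30 and -2.12 ± 0.32, adjusted p = 0.025 and 0.028. RCAN1, an inhibitor of calcineurin, was at 314, 814 and 490.3 TPM in CM and 495, 804 and 593 TPM in LM, with overlapping layers, whereas pregnant CM held 618 to 2229.7 TPM and pregnant LM 134 to 436 TPM. RCAN1 differed from pregnancy by -2.40 ± 0.37 and -2.41 ± 0.41, adjusted p = 0.037 and 0.045, and INMT, a methyltransferase, by -2.79 ± 0.40 and -2.61 ± 0.45, adjusted p = 0.025 and 0.048. Without pair 1 the adjusted p was 0.15 for SPP1, 0.18 for RCAN1 and 0.10 for INMT, and without pair 2 it was 0.10 for each. Without pair 3, the adrenergic receptors ADRA2C (-3.01 ± 0.35, adjusted p = 0.0083) and ADRA1B (-2.29 ± 0.30, adjusted p = 0.013) were called too, which with 3 pairs were at -2.54 ± 0.41, adjusted p = 0.050 (ADRA2C) and -1.80 ± 0.39, adjusted p = 0.14 (ADRA1B). ADRA2C was at 4.02 to 14.1 TPM in pregnant LM and 97.3 to 139 TPM in pregnant CM, so that cyclic LM of gilts 1 and 2, at 38.9 and 51.0 TPM, was above every pregnant LM library and cyclic LM of gilt 3, at 14.7 TPM, was just above them.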

How the data were processed

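Total RNA of the CM and LM layers was sequenced by the authors as 150-base read pairs, aligned to Sscrofa11.1 with HISAT2 2.1.0 using the annotation of Ensembl release 93, and counted with HTSeq 0.9.1. The deposited values are TPM, normalized by the authors so that all libraries sum to the same total, and the gene lengths, the strand setting and the way TPM was computed were not given in the sources used here. TPM keeps no read depth, so that the counting error of a value is unknown, and the study's count model could not be applied.

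The 18 libraries were grouped by their titles. Genes with at least 1 TPM in 3 or more of the 6 cyclic libraries were kept, and log2(TPM + 1) values were fitted with limma 3.58.1 in R 4.3.3, with the gilt as a fixed block and a layer effect for each state, on all 18 libraries or on 16 without cyclic pair 3. All groups shared 1 estimate of the spread (6 and 5 residual degrees of freedom), with a variance trend. The Benjamini-Hochberg adjustment covered all genes tested, and a gene was called at an adjusted p below 0.05 and an absolute log2 difference above 1. Nothing in the sources states that a replicate number marks 1 gilt, but deviations from the layer means correlated at 0.439, 0.448 and 0.529 between layers of the same number and at -0.478 to 0.078 otherwise. Gene symbols came from Ensembl identifiers (11662 of 14140 tested genes), and coordinates from RefSeq, matched by symbol.

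The rule named the 10 largest changes in each direction, up to 4 called members of each of 41 gene lists, a set of 8 genes, 5 genes in each direction of the difference from pregnancy and 10 genes in each direction for the LM library of gilt 3. Further genes, among them the adrenergic and HOX genes and those named although not called, were chosen after their values were seen. The members and the lists were chosen with earlier results of these data known. Alternatives changed the pseudocount, filter, scaling, trend, library weights, libraries fitted, block and fold threshold, and left out each pair in turn. Results for some genes are not reported here. Plots were drawn with matplotlib 3.10.9.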

Additional observations from a re-analysis of the deposited data

Results flagged for a closer look

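In 14 of the genes described, the cyclic layer difference differed from the pregnant one by limma's test with all 3 pairs. The difference of differences was positive in RPL36A (3.68), PRCD (3.63), RPL23A (3.55), RPS29 (3.25), C1QBP (3.10), ND4L (3.10), PFN1 (2.75), RPS28 (2.51), SOD1 (2.18) and ATP5ME (2.16). It was negative in INMT (-2.79), RCAN1 (-2.40), SPP1 (-2.05) and CEBPD (-1.65). The value of PRCD depends on the pseudocount, since the gene is listed at 0 in every cyclic LM library. Beyond the LM libraries singled out above, groups of 3 libraries were not examined for single outlying values.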

How the results depend on the processing

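With 3 pairs, 1954 genes were called. A pseudocount of 5 gave 1199 (1122 higher in CM and 77 in LM), cyclic libraries alone, with 2 residual degrees of freedom, 859 (827 and 32), library weights 346 in LM, and no minimum fold change 256 in LM. The share of calls in CM went from 92.8% to 74.9% after median-ratio scaling (1190 and 398) and 64.2% after quantile normalization (1070 and 597). Without the replicate block, 1522 genes were called with 3 pairs (88 in LM) and 680 without pair 3 (572 and 108). Without the LM library of gilt 3 alone and without the block, 1154 and 313 were called. Leaving out each pair in turn gave 1411 to 2329 calls, 1190 to 2192 in CM and 99 to 221 in LM. Without pair 3, 1411 genes were called. A pseudocount of 5 then gave 902 (758 and 144), no filter 142 in LM, quantile normalization 480 in LM (a CM share of 64.7% compared with 84.3%, and 75.9% after median-ratio scaling), and no minimum fold change 2434 (1903 and 531). Leaving out a further pair gave 24 to 32 calls (22 to 29 in CM and 2 to 3 in LM), where a single cyclic pair is assumed to vary like the pregnant ones.

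The 32 genes of the difference from pregnancy became 578 with library weights (212 more positive and 366 more negative). The more negative ones numbered 2 with no filter, 13 and 16 after median-ratio scaling and quantile normalization, and 1 without the replicate block, and leaving out each pair in turn gave 15 to 85 genes (15 to 57 and 0 to 28). LAMA5 (0.09 with 3 pairs) reversed to -1.12 with library weights, ranged from -1.14 to 0.72 when each pair was left out, and was at -1.46 without the LM library of gilt 3. SCUBE1 reversed to -1.04 with library weights, and COL1A1 to -1.33 without that library. Of 204 named genes, 95 were called with and without pair 3, of which 55 stayed called under all 13 other settings with 3 pairs, 47 under all 12 without pair 3 and 77 without each pair in turn. Without pair 3, the calls of MSX1, NOTUM, SAL1 and CES3 were each kept in 7 of 12 other settings. The causes were not tested beyond what each setting changes. With 3 gilts, of which 1 has a divergent LM library, a gene that was not called is not shown to be equal between the layers.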
